A study of Mus musculus with 2 samples.

Results

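Spermatogonia divide by mitosis along the wall of the seminiferous tubule, and a set of 31 genes used as their markers was followed in mouse round spermatids, haploid germ cells formed by meiosis several steps later. The genes were chosen by symbol, with earlier results of these data known. All 31 were found among the 23234 genes of the expression table. RNA-seq had been made from round spermatids of C57BL/6 mice, with 1 library labelled Epc-dKO, from mice deficient for both Epc1 and Epc2, and 1 library from wild-type mice. EPC1 and EPC2 belong to NuA4/TIP60, a complex that acetylates histones. The labels give no age, no allele, no Cre driver and no purification method, and do not say how many animals each library holds. With 1 library per genotype there is no replicate spread, no test between genotypes and no p-value, and every difference below is between these 2 libraries.

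Values are FPKM, fragments divided by transcript length and by the number of mapped fragments, so levels of different genes can be set side by side. They summed to 198081 in the library labelled Epc-dKO and 193611 in the wild-type library. The read depth is unknown, and no counting interval can be given. Epc1 had an FPKM of 13.6 in the library labelled Epc-dKO and 11.4 in the wild-type library, and Epc2 had 10.5 and 7.12 in the same order. Neither was lower in the library that carries the knockout label, and since a gene-level value can include exons that a deletion leaves in place, these values do not settle the genotype. All directions below rest on the label.

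Spermatogonial stem cells renew in response to GDNF, a growth factor from somatic cells of the tubule wall that binds the receptor pair GFRA1 and RET. Retinoic acid then moves the cells to KIT-positive differentiating spermatogonia and, through STRA8, into meiosis. Most of these markers are shut down before or during meiosis, whereas some, such as Dazl, Kit and Dmrtb1, are known to be transcribed in later germ cells or in other testis cells too.

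Most spermatogonial markers had less FPKM in the library labelled Epc-dKO than in the wild-type library. The value was below that of the wild-type library for 28 of the 31 genes (90.3%), while 3 genes, Id4, Utf1 and Lhx1, had higher values. Among all 19032 genes with a value above 0 in both libraries, 58.7% had a lower value in the library labelled Epc-dKO. Since the markers were chosen with earlier results of these data known, this contrast is a description and gives no support to a difference. For the median marker, the values were an FPKM of 0.662 in the library labelled Epc-dKO and 1.22 in the wild-type library, and the medians of all 23234 genes were 0.588 and 0.708 in the same order. In the bulk RNA of a cell fraction, fewer cells of one type and less RNA per cell cannot be told apart.

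For calls, 1 was added to each FPKM and the log2 ratio of Epc-dKO to WT was taken, with a threshold of 2-fold (a log2 ratio of 1 in size). On this scale 2 of the 31 markers fell, Dmrt1 and Crabp1, and 0 rose. Of all 23234 genes, 0.878% passed the rule downward and 1.27% upward. The median log2 ratio was -0.43 over the 31 markers and -0.00 over all genes. Adding 1 compresses the ratios of low genes, so the plain ratio of FPKM is also given. On the plain scale, a comparison chosen after the values were seen, 17 of 31 markers were at or below 0.5 times the wild-type value and 0 were at or above 2 times, against 15.8% and 7.31% of the 19032 genes above 0 in both libraries. Near the threshold on the log2 (FPKM + 1) scale, Crabp1 lay just inside at -1.07, and Dazl and Stra8 lay just outside at -0.92 and -0.87.

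**Figure D1:**
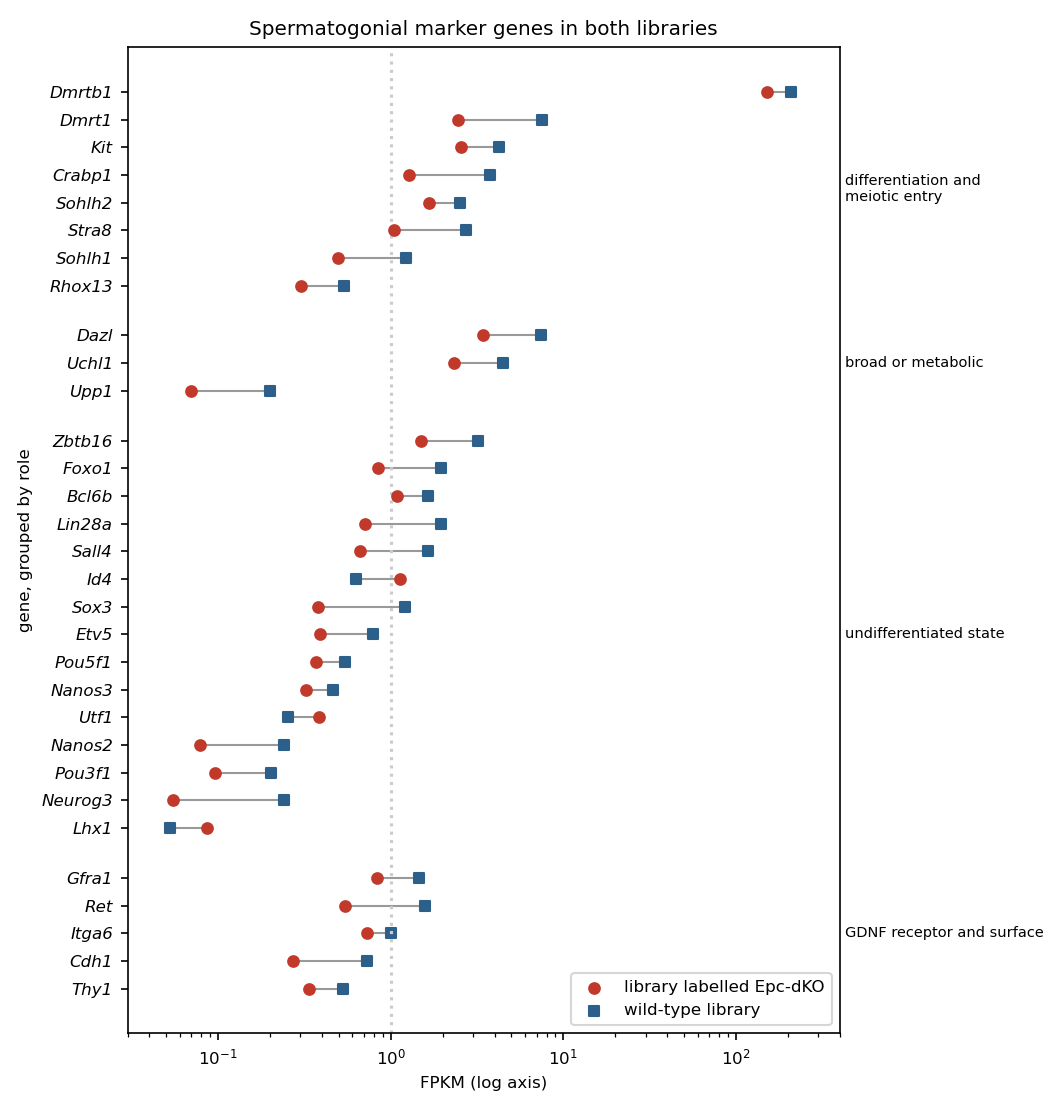
FPKM of each of the 31 spermatogonial markers on a log axis, in the library labelled Epc-dKO (red circles) and the wild-type library (blue squares), grouped by role, with a dotted line at 1 FPKM. The red circle lies to the left in all but 3 genes, Id4, Utf1 and Lhx1, and Dmrtb1 stands far to the right of all others.

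The level of Dmrtb1 stood far above that of the other markers. Dmrtb1, also known as Dmrt6, encodes a DM-domain transcription factor of differentiating spermatogonia. It had an FPKM of 151 in the library labelled Epc-dKO and 209 in the wild-type library, a log2 ratio of -0.47 that did not pass the rule. Its level exceeded that of 99.2% of genes in the library labelled Epc-dKO and of 99.6% in the wild-type library. It made up most of the summed marker FPKM, which was 178 in the library labelled Epc-dKO and 264 in the wild-type library. Without Dmrtb1 the sums were 26.5 and 55.0 in the same order, a ratio of 0.482. This level was close to that of Acrbp, an acrosome gene of spermatids with 191 and 218 FPKM in the same order, and far above that of the other spermatogonial markers.

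Among the markers of differentiation and entry into meiosis, Dmrt1 showed the largest difference in log2 ratio. Dmrt1 encodes a DM-domain transcription factor that holds spermatogonia out of meiosis. It fell to an FPKM of 2.47 in the library labelled Epc-dKO, against 7.49 in the wild-type library (log2 ratio -1.29). Crabp1, which encodes a retinoic acid-binding protein of the cytoplasm, fell to 1.27 in the library labelled Epc-dKO, against 3.77 in the wild-type library (log2 ratio -1.07). The plain ratios of the pair were 0.330 and 0.338, although Dmrt1 had about 2 times the level of Crabp1 in either library.

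Other genes of the retinoic acid response and of differentiation stayed within 2-fold on this scale. Stra8, the retinoic acid-induced gene for meiotic entry, had 1.04 FPKM in the library labelled Epc-dKO and 2.74 in the wild-type library (-0.87). Kit, which encodes the receptor for stem cell factor, had 2.57 and 4.24 in the same order (-0.55). The Kit gene also gives a truncated transcript in mouse spermatids, which a gene-level value does not separate. Sohlh1 and Sohlh2 encode a pair of basic helix-loop-helix factors that act together in differentiating spermatogonia. Sohlh1 had 0.496 FPKM in the library labelled Epc-dKO and 1.22 in the wild-type library, and Sohlh2 had 1.67 and 2.53. Their plain ratios were 0.406 and 0.662, and with 1 library per genotype these ratios cannot be said to differ. Rhox13, an X-linked homeobox gene, had 0.302 and 0.540 FPKM in the same order. All 8 genes of this group had lower values in the library labelled Epc-dKO, with a median log2 ratio of -0.56.

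Promoter sequences are shown for Crabp1, which passed the rule, for the Sohlh1 and Sohlh2 pair, and for the abundant Dmrtb1. They run from 250 bases before to 50 bases after the annotated start, are credited to RefSeq on GRCm38.p6, and are written 5′ to 3′ on the gene's strand. RefSeq promoters were matched for 21 of the 31 markers, in 27 windows, and Dmrt1 was not among them. Capitals mark GGGCGG, the GC box, in Crabp1 and CANNTG, the E-box to which basic helix-loop-helix proteins bind, in the others, on either strand.
Crabp1, chr9:54764498-54764797, plus strand: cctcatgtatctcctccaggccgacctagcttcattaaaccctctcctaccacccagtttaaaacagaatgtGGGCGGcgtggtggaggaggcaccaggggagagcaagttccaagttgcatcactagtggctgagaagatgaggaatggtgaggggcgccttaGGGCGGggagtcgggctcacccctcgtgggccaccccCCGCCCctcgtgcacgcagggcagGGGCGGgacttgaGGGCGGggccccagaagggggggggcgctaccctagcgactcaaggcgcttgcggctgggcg
Sohlh1, chr2:25847199-25847498, minus strand: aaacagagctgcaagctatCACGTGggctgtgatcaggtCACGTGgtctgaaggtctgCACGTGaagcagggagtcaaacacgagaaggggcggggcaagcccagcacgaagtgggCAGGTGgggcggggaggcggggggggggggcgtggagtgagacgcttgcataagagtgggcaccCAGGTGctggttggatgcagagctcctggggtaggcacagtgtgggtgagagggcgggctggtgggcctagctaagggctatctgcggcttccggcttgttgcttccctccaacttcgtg
Sohlh2, chr3:55181794-55182093, plus strand: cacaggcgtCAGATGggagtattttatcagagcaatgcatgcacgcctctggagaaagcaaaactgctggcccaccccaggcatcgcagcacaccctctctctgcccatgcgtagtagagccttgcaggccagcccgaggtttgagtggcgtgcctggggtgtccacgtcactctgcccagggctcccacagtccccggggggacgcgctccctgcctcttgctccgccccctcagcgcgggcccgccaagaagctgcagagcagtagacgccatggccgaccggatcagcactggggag
Dmrtb1, upstream start, chr4:107684181-107684480, minus strand: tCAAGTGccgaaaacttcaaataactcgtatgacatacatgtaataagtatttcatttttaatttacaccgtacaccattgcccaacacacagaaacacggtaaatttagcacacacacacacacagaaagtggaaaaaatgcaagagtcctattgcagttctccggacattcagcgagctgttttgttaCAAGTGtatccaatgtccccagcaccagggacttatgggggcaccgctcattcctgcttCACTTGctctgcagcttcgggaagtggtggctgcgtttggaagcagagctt
Dmrtb1, downstream start, chr4:107683540-107683839, minus strand: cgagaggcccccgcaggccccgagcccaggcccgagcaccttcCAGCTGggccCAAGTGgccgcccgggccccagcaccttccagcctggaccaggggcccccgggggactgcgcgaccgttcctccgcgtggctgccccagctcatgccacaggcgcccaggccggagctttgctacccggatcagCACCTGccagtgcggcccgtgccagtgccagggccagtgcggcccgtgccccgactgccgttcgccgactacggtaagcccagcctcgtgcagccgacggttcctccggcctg

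The Crabp1 window held 5 matches to GGGCGG and 0 to CANNTG. Sohlh1 held 5 matches to CANNTG and Sohlh2 held 1. The 2 annotated starts of Dmrtb1 lay in windows of unlike composition, with 44.7% G and C and 9 CpG sites at the upstream start and 74.7% and 28 CpG sites at the downstream start. Each Dmrtb1 window held 3 matches to CANNTG. A match of so few letters is common. CANNTG was present in 72.3% of all 32851 promoter windows and in 18 of the 27 marker windows. GGGCGG was present in 35.7% of all windows and in 16 of the marker windows. The remaining motifs searched on both strands were CNCCTCAG, a STRA8-type motif, found in 5 marker windows and 7.94% of all windows, and ACANTGT, the core of a DMRT1-type motif, found in 2 and in 7.54%. CANNTG reads the same on both strands, and none of the 4 motifs contains another. The matches describe these windows only.

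Of the 3 broad germ cell or metabolic markers, all had lower values in the library labelled Epc-dKO and none passed the rule. Dazl encodes an RNA-binding protein that germ cells carry from the fetal gonad into meiosis. It had 3.44 FPKM in the library labelled Epc-dKO and 7.42 in the wild-type library, a log2 ratio of -0.92, and its plain ratio was 0.464. Uchl1, a deubiquitinating enzyme gene used to stain spermatogonia, had 2.33 FPKM in the library labelled Epc-dKO and 4.49 in the wild-type library (-0.72). Upp1, the gene of uridine phosphorylase 1, was near the floor of the table at 0.0697 and 0.200 in the same order.

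Of the 15 markers of the undifferentiated state, 5 had a mean of 1 FPKM or more. Zbtb16, which encodes the stem cell maintenance factor PLZF, had 1.51 FPKM in the library labelled Epc-dKO and 3.21 in the wild-type library (-0.75). Lin28a, for an RNA-binding protein of undifferentiated spermatogonia, had 0.708 and 1.95 in the same order (-0.79). Sall4, a zinc finger gene, had 0.662 and 1.65 (-0.67), and Foxo1, a forkhead factor gene required for stem cell maintenance, had 0.850 and 1.95 (-0.67). These 4 genes had plain ratios of 0.363 to 0.470. Bcl6b, a transcription repressor gene induced by GDNF in cultured mouse stem cells, had 1.09 FPKM in the library labelled Epc-dKO and 1.65 in the wild-type library, a plain ratio of 0.662.

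The other 10 genes of this group had a mean FPKM under 1. Sox3, an X-linked gene of committed progenitors, had 0.381 FPKM in the library labelled Epc-dKO and 1.22 in the wild-type library (-0.68). Etv5, an ETS factor gene downstream of GDNF, had 0.392 and 0.790 in the same order. The RNA-binding protein genes Nanos2 and Nanos3, of stem cells and progenitors, had 0.0791 and 0.325 FPKM in the library labelled Epc-dKO, against 0.240 and 0.462 in the wild-type library. Neurog3, Pou3f1 and Pou5f1, transcription factor genes of progenitors or pluripotent cells, had 0.0548, 0.0957 and 0.371 FPKM in the library labelled Epc-dKO, against 0.242, 0.202 and 0.548 in the wild-type library. Neurog3 had the lowest plain ratio of all markers, 0.226, at a level where few reads can be expected behind it.

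The 3 markers with higher values also belong to the undifferentiated state. Id4, which encodes an inhibitor of helix-loop-helix factors enriched in stem cells, had 1.14 FPKM in the library labelled Epc-dKO and 0.630 in the wild-type library, a log2 ratio of 0.39. Utf1, a chromatin-associated gene, had 0.383 and 0.254 in the same order (0.14), and Lhx1, a LIM homeobox gene, had 0.0863 and 0.0530 (0.04). None passed the rule. Over the 15 genes of this group, 12 were lower, and the median log2 ratio was -0.24, or -1.08 without a pseudocount.

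Genes of the GDNF receptor and of the cell surface were all lower. Gfra1 and Ret, for the GDNF-binding and the signalling chain, had 0.833 and 0.542 FPKM in the library labelled Epc-dKO, against 1.47 and 1.58 in the wild-type library, and log2 ratios of -0.43 and -0.74. Cdh1, for E-cadherin, had 0.273 FPKM in the library labelled Epc-dKO and 0.731 in the wild-type library. Itga6, an integrin chain used to sort stem cells, and Thy1, a surface antigen also found on other cells, had 0.733 and 0.335 FPKM in the library labelled Epc-dKO, against 1.005 and 0.529 in the wild-type library. None of these 5 genes passed the rule, and their median log2 ratio was -0.43.

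The order of the markers was partly kept. In the library labelled Epc-dKO it ran Dmrtb1, Dazl, Kit, Dmrt1 and Uchl1 from the highest down, and in the wild-type library Dmrtb1, Dmrt1, Dazl, Uchl1 and Kit. Dmrt1 stood at rank 4 in the library labelled Epc-dKO and rank 2 in the wild-type library, Stra8 at rank 11 and rank 8, and Id4 at rank 9 and rank 21. Neighbours in this order cannot be said to differ, since no library was repeated.

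**Figure D2:**
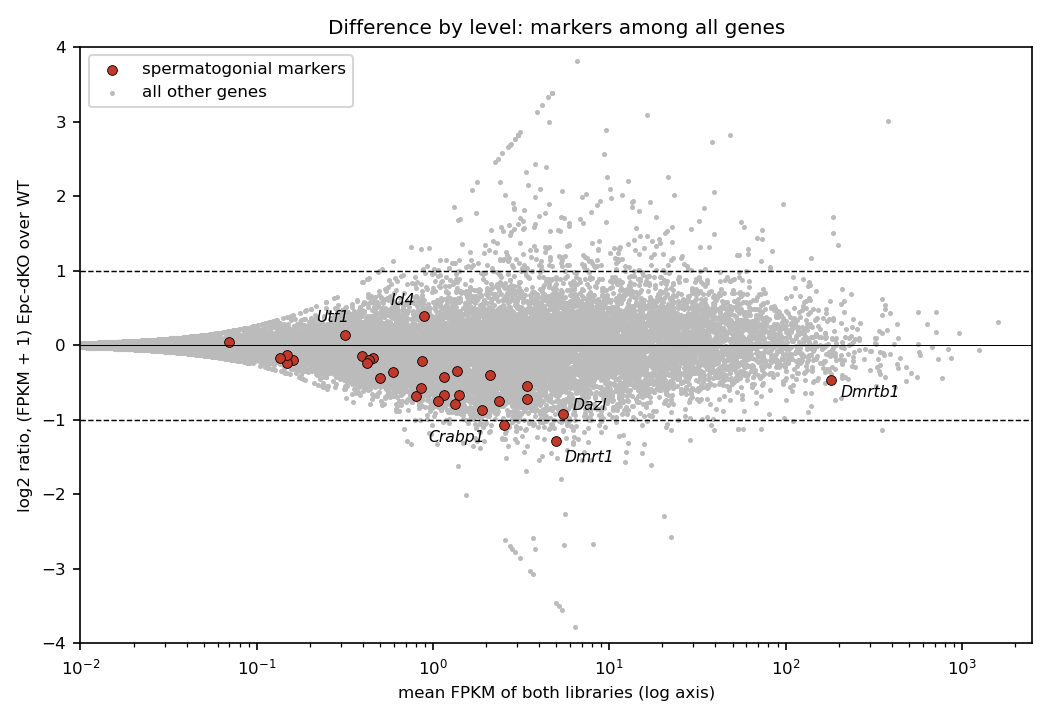
Log2 ratio of (FPKM + 1), Epc-dKO over WT, against mean FPKM of both libraries on a log axis, for all genes (grey) and the 31 markers (red), with dashed lines at 2-fold; genes with a mean below 0.01 and those past 4 on the log2 scale lie outside the frame. Dmrt1 and Crabp1 are the red points below the lower line, and the red points with low means are pressed toward 0.

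The level of a gene sets how far this scale can move, so the markers were read against genes of like level. The shares below are descriptions too, since the markers were chosen with earlier results known. The mean of both libraries was 1 FPKM or more for 15 markers and under 1 for 16. Of the 15, 5 had less than 1 FPKM in the library labelled Epc-dKO and passed the minimum through the wild-type library, while 0 passed through the library labelled Epc-dKO alone, so this subset leans toward genes that were lower. Between 1 and 5 FPKM lay 13 markers, of which all 13 had lower values in the library labelled Epc-dKO, 2 passed the 2-fold rule and 8 had plain ratios of 0.5 or less. Of all 5110 genes in that range 1.78% passed the rule downward. Of the 5078 genes there with values above 0 in both libraries, 61.3% were lower and 11.8% had plain ratios of 0.5 or less. Under 1 FPKM, 13 of 16 markers were lower and 8 had plain ratios of 0.5 or less, against 63.7% and 26.4% of the 8696 genes there with values above 0 in both libraries. At 5 FPKM or more stood 2 markers, Dazl and Dmrtb1, both lower, and Dazl alone with a plain ratio of 0.5 or less, against 47.8% and 2.02% of the 5258 genes there with values above 0 in both libraries. Genes of low level thus had lower values in the library labelled Epc-dKO more often than abundant genes, among genes above 0 in both libraries.

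**Figure D3:**
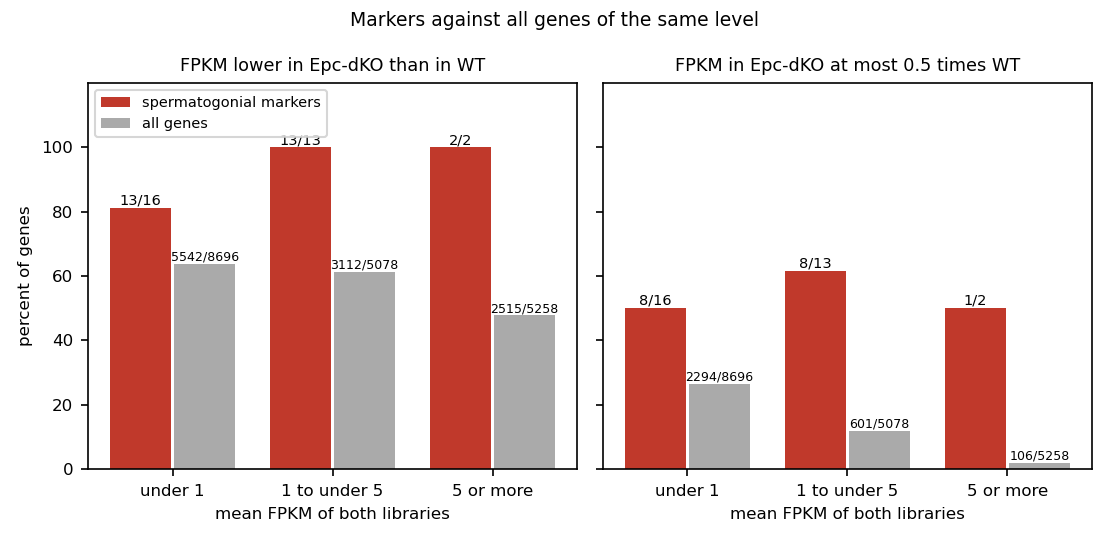
Percent of spermatogonial markers (red) and of all genes above 0 in both libraries (grey) whose FPKM was lower in the library labelled Epc-dKO (left) or at most 0.5 times the wild-type FPKM (right), by mean FPKM, with counts above the bars. The red bar exceeds the grey one in each range, at 13 of 13 against 61.3% between 1 and 5 FPKM on the left, and the highest range holds 2 markers.

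A further 28 genes linked to spermatogonia, none of them among the 31, gave a mixed picture. On the log2 (FPKM + 1) scale 1 fell, Mcam, a cell adhesion gene, to 2.05 FPKM in the library labelled Epc-dKO, against 5.38 in the wild-type library (-1.06), and 0 rose. Of all genes, 0.878% passed the rule downward and 1.27% upward. Of the 26 with values above 0 in both libraries, 19 were lower and 7 higher, against 58.7% lower among all genes above 0 in both libraries. Their median plain log2 ratio was -0.57, against -1.08 for the 31 markers and -0.14 for all genes above 0 in both libraries. Nxf2, an X-linked RNA export factor gene, had 5.15 FPKM in the library labelled Epc-dKO and 10.1 in the wild-type library (-0.85). The most abundant 2 did not share this direction. Ddx4, an RNA helicase gene that germ cells transcribe through meiosis, had 125 FPKM in the library labelled Epc-dKO and 110 in the wild-type library, and Bmi1, a polycomb gene, had 12.7 and 8.91 in the same order.

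Of 17 genes for niche ligands and retinoic acid enzymes, 0 passed the 2-fold rule, 12 were lower and 5 higher. Only 4 of the 17 had a mean of 1 FPKM or more. Among all genes above 0 in both libraries 58.7% were lower, and 63.7% of those with a mean under 1 FPKM. Gdnf itself had 0.111 FPKM in the library labelled Epc-dKO and 0.0735 in the wild-type library, and Kitl, for stem cell factor, had 0.0931 and 0.180; both were named after their values were seen. Aldh1a2, a retinoic acid synthesis gene, was the most abundant, with 43.2 and 32.7 FPKM in the same order, and Cyp26b1, which degrades retinoic acid, had 0.489 and 1.64 (-0.82).

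Markers of other testis cells moved with the spermatogonial genes in part. The counts below stand beside 58.7% lower among all genes above 0 in both libraries, and 63.7% among those with a mean under 1 FPKM. Of 17 Sertoli cell markers in the table, 15 of the 16 above 0 in both libraries had lower values in the library labelled Epc-dKO and 0 passed the rule. Their summed FPKM was 11.4 in the library labelled Epc-dKO and 19.3 in the wild-type library. Clu, their most abundant gene, had 5.03 and 8.29 in the same order, and the defining genes Sox9 and Amh were below 0.2 FPKM in both libraries. Fshr was at 0.0227 FPKM in the library labelled Epc-dKO and listed at 0 in the wild-type library; these 3 genes were named after their values were seen. Of 9 peritubular and stromal markers 7 were lower, 0 fell and 1, the smooth muscle actin gene Actg2, rose; their sums were 44.0 in the library labelled Epc-dKO and 30.7 in the wild-type library, and 7.81 and 15.5 in the same order without Actg2. Of 10 Leydig cell markers 7 were lower and 3 higher, with sums of 29.4 and 43.7 in the same order and a median log2 ratio of -0.08. The 2 that fell held nearly all of the gap between these sums. They were Ptgds, with 3.09 and 9.29 FPKM in the same order, and Insl3, with 6.79 and 14.9. Cyp17a1, among the 3 higher genes, had 8.79 and 7.78. Endothelial, blood and immune markers, 15 genes, summed to 6.24 and 7.57, and 11 of the 13 above 0 in both libraries were lower. Of the 15, 0 passed the rule, and only 1 had a mean of 1 FPKM or more. The haemoglobin genes Hbb-b1 and Hba-a1 were listed at 0 in both libraries. The part of these cells in the marker values was not tested.

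Markers of the other germ cell stages were also counted, beside the 58.7% of all genes above 0 in both libraries that were lower. Of 19 spermatocyte markers 15 were lower, 1 fell (Tex101, to 5.69 FPKM in the library labelled Epc-dKO, against 12.4 in the wild-type library) and 0 rose, with a median log2 ratio of -0.24. The median plain log2 ratio of the spermatocyte markers was -0.27, against -1.08 for the 31 spermatogonial markers. The abundant pachytene gene Hspa2 had 447 FPKM in the library labelled Epc-dKO and 579 in the wild-type library (-0.37). Round spermatid markers, 15 genes, were at 11.9 FPKM or more in the library labelled Epc-dKO and at 11.7 or more in the wild-type library, with a median log2 ratio of 0.02, so these genes were abundant in both libraries. Of 5 elongating spermatid markers 4 rose, among them Prm2 at 675 FPKM in the library labelled Epc-dKO and 82.8 in the wild-type library. The summed FPKM of these 5 was 979 and 165 in the same order. The part of a different mix of stages in the spermatogonial values was not tested.

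**Figure D4:**
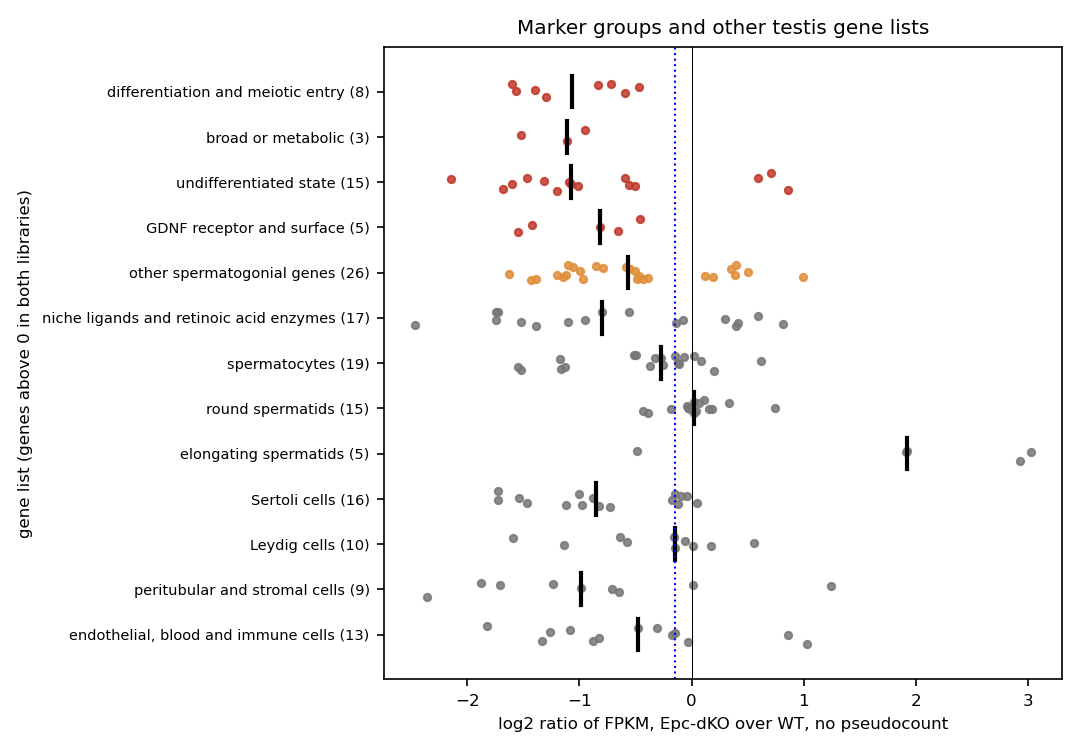
Plain log2 ratio of FPKM, Epc-dKO over WT, for each gene above 0 in both libraries, in the 4 groups of spermatogonial markers (red), other spermatogonial genes (orange) and lists of niche and cell type genes (grey), with the median of each list as a black bar, the median of all genes above 0 in both libraries, -0.14, as a dotted line, and the number of genes in brackets. The medians of the red groups lie between -1.11 and -0.81, those of Sertoli and peritubular markers at -0.85 and -0.98, and that of round spermatid markers at 0.03.

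Features that the choice of genes did not use were also compared. The 31 genes lie on 15 of the mouse chromosomes, with 29 on autosomes and 2, Rhox13 and Sox3, on the X. The 271 expressed genes (mean of 1 FPKM or more) assigned to the X had a median log2 ratio of -0.48. The medians were -0.045 for all 10438 expressed genes and -0.72 for the 15 expressed markers. Of these 15, 5 passed the minimum through the wild-type library only, so their median leans toward lower values. Over all 31 markers the median was -0.43 with or without the X-linked pair. The longest annotated transcripts of the markers ran from 730 to 8665 nt, with a median of 2364 nt. Exons of 10 markers (Foxo1, Gfra1, Id4, Lin28a, Nanos2, Neurog3, Pou3f1, Pou5f1, Sall4 and Uchl1) overlap a gene on the opposite strand in GENCODE M21. The authors' strand setting is not known here, so reads of such partners may be included in these values. Dmrt1, Crabp1, Dazl and Dmrtb1 have no such overlap.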

How the data were processed

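The authors deposited 1 table of FPKM per gene with 1 column per library. Total RNA was made into directional libraries with the NEBNext Ultra Directional kit, per the labels' protocols. Cufflinks 2.2.1 and mm9 are named, per the submitters' processing notes; for the aligner, annotation, strand setting and scaling, a name is not given in the sources. Of 23235 rows, 1 held library codes and was left out. Read depth is unknown, and no interval was computed. Columns were matched to samples by their titles.

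For each gene, log2((FPKM + 1) Epc-dKO over (FPKM + 1) WT) was computed, and 2-fold on this scale was the rule. A gene was called expressed from a mean of 1 FPKM up. The rule was also run on simulated data with set changes, which checks the code and not the error of calls in these libraries. Every marker is accounted for; of each other list the 2 most abundant and 2 most changed expressed genes were eligible for naming, and others are said to be named after their values were seen or describe a count. A gene eligible under this rule is not reported here. The members and lists were chosen with earlier results of these data known. Of 137 entries in the other lists, 135 matched a symbol; Meioc and Rhox5 did not. Alternatives were pseudocounts of 0.1 and 0.5, other scalings, rules of 1.5-fold and 4-fold, other minima, and markers without X-linked genes. Chromosomes and promoters came from RefSeq (GRCm38.p6) and transcript lengths and overlaps from GENCODE M21, not from mm9. Python 3.11.15, NumPy 2.4.6, pandas 2.3.3 and Matplotlib 3.10.9 were used.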

Additional observations from a re-analysis of the deposited data

How the results depend on the processing

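The number of markers past the rule downward depended on how low values were weighed. It was 2 with a pseudocount of 1 FPKM, 6 with 0.5, 13 with 0.1, 12 on the TPM scale and 17 with no pseudocount (the last chosen after seeing the data), and 11 under a 1.5-fold rule and 0 under a 4-fold rule. A smaller pseudocount compresses low genes less, and the TPM scale raises all values and so lightens the pseudocount. The count of other spermatogonial genes went with it, at 1 with a pseudocount of 1, 5 with 0.1, 5 on the TPM scale, 8 with no pseudocount, 6 under the 1.5-fold rule and 0 under the 4-fold rule. The median log2 ratio of all 31 markers was -0.43 in the report, -0.86 with a pseudocount of 0.1, -0.72 on the TPM scale and -1.08 with none; that of the 15 expressed markers was -0.72, -1.09 with 0.1 and -1.11 with none. The other rescalings and a minimum mean of 1 FPKM left both counts as they were, and the set without X-linked markers, run for the markers only, left their count at 2. The medians stayed within 1.5 times under these settings and the other minima, the tolerance used because no replicate error exists. The ratio of the summed marker FPKM was 0.672, and 0.482 to 0.698 under its alternatives. No marker rose under the alternatives run here. In 105 comparisons of single expressed markers, 80 stayed on their side of 2-fold, 25 moved past it and 0 changed sign; a pseudocount cannot change a sign. No paired analysis was possible because there was only 1 library for each genotype. For the 16 markers under 1 FPKM, statements are limited by a read depth that is not known.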
